A study of Mus musculus with 4 samples.

Results

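ERV1 families are the class I endogenous retroviruses of the mouse genome, the remains of proviruses related to the gammaretroviruses. They were taken as every repeat family whose annotation in the counts table names the class LTR and the family ERV1, and their transcript counts were compared between mouse embryonic fibroblasts (MEF cells) that were wt and MEF cells null for Top2β, a DNA topoisomerase that passes 1 DNA duplex through another. The rule gave 147 of the 1562 repeat families in a table of 56404 genes and repeat families. Of the 147, 30 are internal parts, whose name ends in -int, and 117 are long terminal repeats (LTRs). Sequencing of total RNA depleted of ribosomal RNA covered 2 libraries per genotype, and no treatment is given for these cells. The methods give a culture medium for MEF cells and do not state separately how the Top2β-null cells were kept. The Top2β-null MEF cells were derived from Top2β-null mice and were a gift from other laboratories, whereas the methods cite a different source for the wt MEF cells, so that genotype and origin of the cells cannot be told apart. Whether the 2 libraries of a genotype came from separate cultures is not given in the sources used here, and the p-values measure only the spread between these libraries.

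A provirus has an LTR at each end and the viral genes gag, pol and env between them. The LTR carries the promoter, and recombination between the ends leaves solitary LTRs, which outnumber complete copies in mammalian genomes. In mouse cells, KRAB zinc finger proteins such as Zfp809 recruit Trim28 and the H3K9 methyltransferase Setdb1 to these elements and keep them silent, most strictly in embryonic cells. The mouse gammaretroviral families include MuLV-int and the RLTR4 families (murine leukaemia viruses), MMERGLN-int with its LTR (GLN, named after the glutamine tRNA that primes its reverse transcription), MMVL30-int with the RLTR6 LTRs (VL30, which does not encode complete viral proteins but can be packaged by leukaemia viruses), and MuRRS with the LTRIS LTRs.

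The libraries held 142460700 and 149647278 counts in wt and 133116830 and 138182262 in Top2β-null MEF cells, of which 19.3% to 21.4% fell on repeats. Top2b (chromosome 14 of GRCm38, 16365179 to 16435462, forward strand) had 18259 and 18465 normalized counts in wt and 3879 and 3789 in Top2β-null MEF cells. A normalized count is a count scaled to the geometric mean of the library sizes after edgeR's TMM correction. The fibroblast markers Col1a1, Col1a2, Col3a1, Dcn, Pdgfrb, Thy1 and Vim were detected in every library, but at different levels. Dcn (from 226 and 223 to 7053 and 7239 normalized counts), Thy1 (log2 fold change 2.07) and Pdgfrb (1.88) were higher in Top2β-null MEF cells. Col1a1 (-1.38), Col3a1 (-1.01) and Vim (-0.84) were lower, and Col1a2 did not pass the test. Past the cut-offs of the study, which are defined below, were 5 of the 7. Of all features, 5.27% passed these cut-offs as higher and 4.97% as lower. Of 14 leukocyte markers, Tyrobp and Adgre1 had no counts and Ptprc at most 6.76 normalized counts, while the summed level of the list was 3244 to 3304 in wt and 2112 to 2139 in Top2β-null MEF cells. Of the 6 leukocyte markers tested, 3 were higher, 1 was lower and 2 did not pass, beside 32.5% of all features in each direction. The higher ones were Fcer1g (1.67-fold), Csf1r (1.29-fold) and Itgam. Itgam had 1 and 1 counts in wt against 27 and 29 and could enter the test only through the null libraries. Cd68 was lower, from 1641 and 1688 to 302 and 289 normalized counts. The summed levels were 67.6 to 70.5 against 19.7 to 19.8 for the 4 epithelial markers, 18.4 to 20.2 against 53.9 to 65.4 for the 5 markers of pluripotent or germ cells, of which Nanog had 3.03 and 0.966 against 43.5 and 42.6, and 121 to 127 against 242 to 254 for the 3 endothelial markers, of which Kdr was higher (71.7 and 68.6 against 203 and 205) while Pecam1 and Cdh5 did not pass. In such bulk samples fewer cells of a type and less RNA per cell cannot be told apart, and the part of these markers in the ERV1 results was not tested.

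ERV1 families changed in both directions, and most of the changes were small. Of the 136 families that reached 10 counts in 2 or more libraries, 42 were higher and 28 were lower in Top2β-null MEF cells by edgeR's quasi-likelihood test at an adjusted p below 0.05, and 66 did not pass. These are 30.9% and 20.6% of the families tested, whereas 32.5% of all 26566 genes and repeat families tested were higher and 32.5% were lower. The 42 include LTR45C and the 28 include MER83B-int, which could each enter the test only through the genotype where it was high. Among the 1345 other repeat families tested, 27.3% were higher and 11.7% were lower. The median log2 fold change of the ERV1 families was 0.019, against 0.003 over all features and 0.042 over the other repeat families, and their quartiles were -0.14 and 0.23. The 11 families that were not tested were LTR23-int, LTR27C, LTR36, LTR44, LTR58, LTR64, MER50, MER57E3, MER72, HUERS-P3b-int and MER83A-int, and each had at most 10 counts in any library.

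The cut-offs of the study also ask that the log2 fold change exceed 1 in either direction and that the mean normalized count exceed 100. ERV1 had 2 families past them, MMERGLN-int and MER34-int, both higher in Top2β-null MEF cells and both internal parts. No ERV1 family passed them in the lower direction by edgeR, and the same 0 was found with DESeq2. An unadjusted p could not change this 0, since the lowest log2 fold change by edgeR at such a mean was -0.94 (MER72B). At an unadjusted p below 0.05, 32 families were lower whatever their size. Without Top2β-null replicate 1, 1 family passed in the lower direction, MER72B (-1.04). Of all features, 5.27% passed these cut-offs as higher and 4.97% as lower, and of the other repeat families 0.892% and 0.223%.

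The numbers of higher and of lower families depended on the tool and on scaling. With repeats fitted alone there were 27 higher and 22 lower families. DESeq2 gave 32 higher and 14 lower families, and scaling to the total count gave 54 and 14, which moved the higher share of all calls from 60% to 79.4% and the median log2 fold change of all features from 0.003 to 0.072. Without Top2β-null replicate 2 there were 51 higher and 17 lower families.

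**Figure D1:**
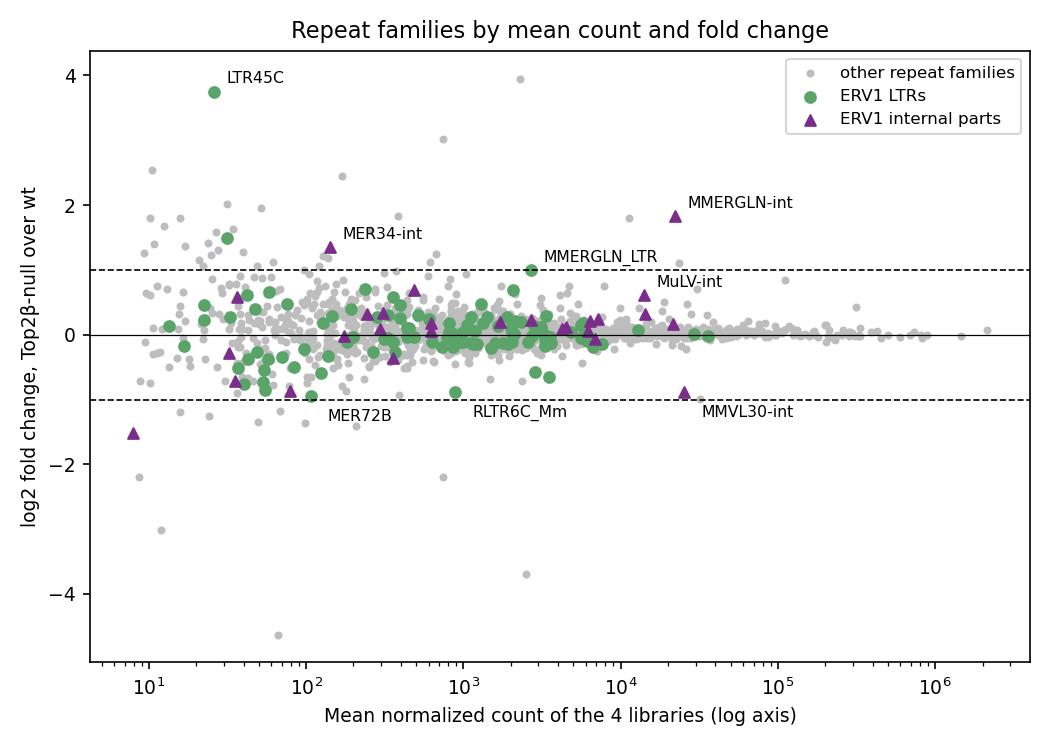
Log2 fold change (Top2β-null over wt) of each repeat family against its mean normalized count over the 4 libraries, on a log axis. Green circles are ERV1 LTRs, purple triangles ERV1 internal parts and grey points the other repeat families, and dashed lines mark a log2 fold change of 1 and -1. MMERGLN-int (1.83) and MMVL30-int (-0.88) stand apart from the other ERV1 families of high count, while LTR45C (3.75) reached 10 counts in the null libraries only.

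The internal parts and the LTRs differed in how many were higher in Top2β-null MEF cells. Of the 27 internal parts tested, 14 were higher and 4 were lower (51.9% and 14.8%, where each direction held 32.5% of all features). The 4 include MER83B-int, which entered the test only through the wt libraries. The median log2 fold change of the internal parts was 0.16. It ranged from 0.124 to 0.228 over the other scalings, filters and tools and from 0.146 to 0.245 with 1 library left out. Of the 109 LTRs tested, 28 were higher and 24 were lower (25.7% and 22%, both below the share of all features). The 28 include LTR45C, which entered the test only through the null libraries. The median of the LTRs was -0.015, and it ranged from -0.049 to 0.054 over the other scalings, filters and tools and from -0.034 to 0.061 with 1 library left out. With scaling to the total count, 16 internal parts were higher and 4 lower, and 38 LTRs were higher and 10 lower, so that the higher share of the LTR calls moved from 53.8% to 79.2%. With repeats fitted alone, 9 internal parts were higher and 3 lower, and 18 LTRs were higher and 19 lower, so that more LTRs were lower than higher. Without Top2β-null replicate 2, 34 LTRs were higher and 14 lower, and without Top2β-null replicate 1 the lower internal parts numbered 2. These shares were not tested against each other, since families are not replicates of a genotype and related families can share reads.

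The internal parts of ERVK, the other large retroviral family of the mouse, showed the same order, beside 32.5% of all features in each direction. Of 45 ERVK internal parts tested, 27 were higher and 3 were lower, with a median log2 fold change of 0.18, and of 234 ERVK LTRs 75 were higher and 32 lower, with a median of 0.043. Of 108 ERVL families 23 were higher and 13 lower (median 0.007), and of 103 MaLR families 21 were higher and 12 lower (median 0.026).

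**Figure D2:**
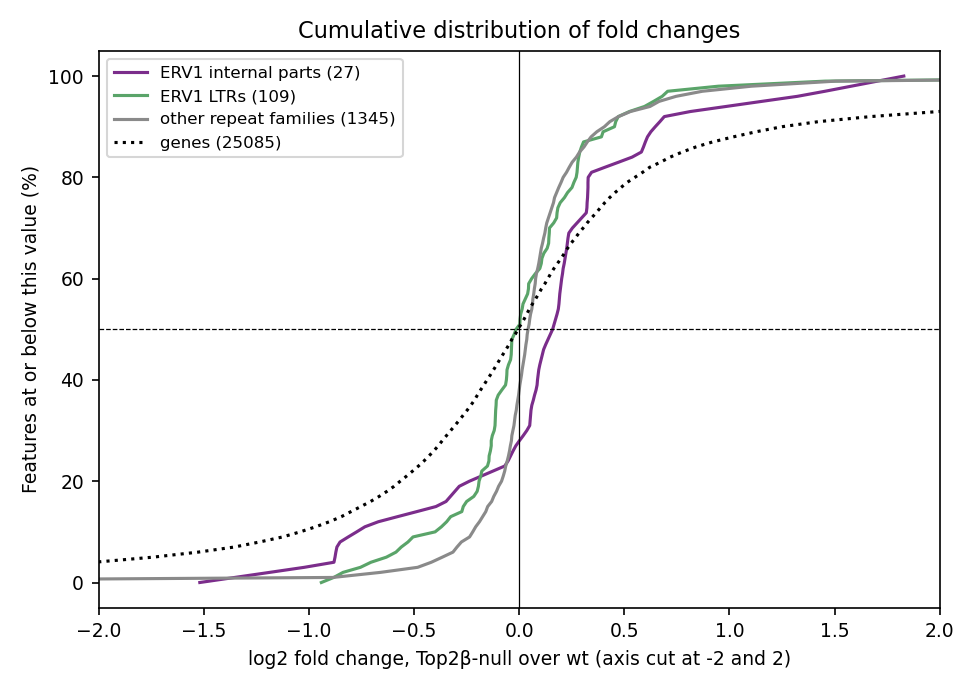
Share of features (%) at or below each log2 fold change (Top2β-null over wt), for ERV1 internal parts, ERV1 LTRs, the other repeat families and genes, with the number tested in brackets. The purple curve of the internal parts crosses 50% at 0.16, to the right of the LTRs at -0.015, and the dotted curve of the genes is wider than those of the repeats.

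Summed over all 147 families, ERV1 had 361184 and 358011 normalized counts in wt and 395466 and 375890 in Top2β-null MEF cells. The Top2β-null libraries lay above the wt libraries, by 0.10 on the log2 scale against a pooled replicate SD of 0.0372. The log2 difference was 0.17 with scaling to the total count, 0.066 with repeats fitted alone and 0.16 without Top2β-null replicate 2. The sum was 0.248% to 0.287% of all counts in a library. With the main scaling, of the difference of 26080 normalized counts between the group means, 24954 lay in the internal parts. Their sum was 128767 and 128218 in wt and 156284 and 150609 in the null cells, a log2 difference of 0.26 with a pooled SD of 0.0269. The sum of the LTRs was 232418 and 229793 in wt and 239182 and 225281 in Top2β-null MEF cells, and these ranges overlapped. With MMERGLN-int and MMVL30-int left out, the log2 difference of the summed internal parts was 0.23. An exact permutation test of 2 libraries against 2 cannot give a p below 0.333, and none is given for the sums.

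**Figure D3:**
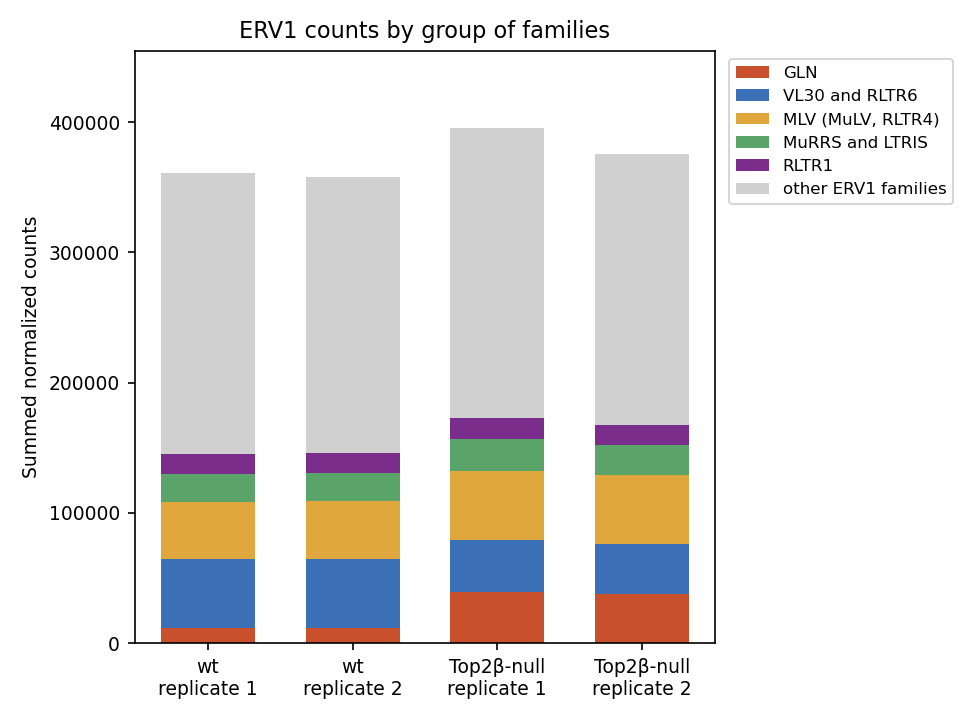
Summed normalized counts of ERV1 families in each library, stacked by group of families, from 0. The GLN block is larger and the VL30 block smaller in the Top2β-null libraries, while the block of other ERV1 families differs little between genotypes.

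The GLN families rose, and MMERGLN-int had the highest log2 fold change of the ERV1 families with a mean normalized count above 100. This internal part had 9751 and 9714 normalized counts in wt and 35251 and 33913 in Top2β-null MEF cells. The groups lay 3.55-fold apart, far beyond the spread within either group. The fitted log2 fold change of 1.83 (standard error, SE, 0.0272) passed edgeR's quasi-likelihood test after Benjamini-Hochberg adjustment (adjusted p = 7.8e-18) and had rank 5 from the top among the 1296 repeat families with a mean above 100. MMERGLN_LTR had 1863 and 1762 normalized counts in wt and 3652 and 3559 in Top2β-null MEF cells. Its log2 fold change of 0.99 (SE 0.0429, adjusted p = 5.27e-12, edgeR) was just under the cut-off of 1, and it was 0.94 to 1.06 over the alternatives. MMERGLN-int accounted for 2.7% and 2.71% of all ERV1 counts in wt, and for 8.91% and 9.02% in Top2β-null MEF cells. Summed, GLN had 11614 and 11476 normalized counts in wt and 38903 and 37472 in Top2β-null MEF cells. The gain of GLN was 26642 normalized counts.

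Smaller changes were seen in the RLTR1 families, and the log2 ratio of MMERGLN-int to RLTR1B-int in raw counts was 1.18 in each wt library and 2.91 and 2.87 in the Top2β-null libraries. RLTR1B-int had 4311 and 4303 normalized counts in wt and 4693 and 4651 in Top2β-null MEF cells (log2 fold change 0.12, SE 0.031). It passed the test (adjusted p = 0.00353, edgeR), but not under every alternative, with adjusted p-values up to 0.188. RLTR1B, its LTR, had 3466 and 3608 against 3523 and 3240, and the groups overlapped. RLTR1D2_MM was the only RLTR1 LTR to rise (log2 fold change 0.48, from 1110 and 1053 to 1536 and 1477), while RLTR1A2_MM (-0.15) and RLTR1D (-0.13) fell, each losing its call under an alternative (adjusted p up to 0.158 and 0.274), and RLTR1D was at -0.086 without Top2β-null replicate 1. RLTR1, RLTR1C and RLTR1E_MM did not pass the test, although RLTR1E_MM (-0.33) passed as lower without wt replicate 2 (-0.53) and without Top2β-null replicate 2 (-0.48), and RLTR1B without wt replicate 1 (-0.11). Over all 8 RLTR1 families the sums were 15535 and 15572 in wt and 16003 and 15583 in Top2β-null MEF cells.

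VL30 changed in the opposite direction to GLN. MMVL30-int, which had more counts than any other ERV1 internal part in the wt libraries, had 33101 and 32766 normalized counts in wt and 18162 and 17599 in Top2β-null MEF cells, 1.84-fold lower in the null cells. The log2 fold change of MMVL30-int was -0.88 (SE 0.0258, with an adjusted p of 3.63e-14 by edgeR), and it was between -0.92 and -0.81 under every alternative run. Its share of the ERV1 counts was 9.16% and 9.15% in wt against 4.59% and 4.68% in Top2β-null MEF cells. The LTRs that carry the RLTR6 name did not move together. RLTR6_Mm fell from 4302 and 4311 to 2719 and 2748 (log2 fold change -0.66, SE 0.0356), and RLTR6C_Mm fell from 1177 and 1134 to 598 and 653 (-0.89, SE 0.0627). RLTR6B_Mm rose from 1953 and 1973 to 2287 and 2266 (0.21, SE 0.0434), with an adjusted p of up to 0.05 over the alternatives. RLTR6-int, the other internal part of that name, rose from 12681 and 12905 to 16660 and 15303 (0.32, SE 0.0333, adjusted p = 3.46e-07, edgeR). MMVL30-int and its 3 LTRs together had 40533 and 40184 normalized counts in wt and 23765 and 23266 in the null cells, a log2 difference of -0.78. With RLTR6-int added, the 5 families had 53214 and 53090 normalized counts in wt and 40424 and 38569 in Top2β-null MEF cells.

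The murine leukaemia virus families rose by smaller amounts, and by different amounts from each other. MuLV-int had 11158 and 11009 normalized counts in wt and 16778 and 17159 in Top2β-null MEF cells (1.53-fold, log2 fold change 0.62, SE 0.0252, adjusted p = 2.63e-12, edgeR). RLTR4_MM-int had 20318 and 20573 against 23149 and 22493 (log2 fold change 0.16, SE 0.0253, adjusted p = 4.25e-05, edgeR). Neither family overlapped between genotypes. Their LTR, RLTR4_Mm, had 12109 and 12900 against 13144 and 13273, a log2 fold change of 0.079 (adjusted p = 0.0282, edgeR) that did not pass under every alternative (adjusted p up to 0.675) and was 0.019 without wt replicate 1 and 0.13 without Top2β-null replicate 1. The 3 families together had 43585 and 44482 normalized counts in wt and 53071 and 52924 in Top2β-null MEF cells.

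MuRRS and LTRIS families were mostly slightly higher in Top2β-null MEF cells. MuRRS-int rose from 2468 and 2518 to 2986 and 2840 normalized counts (log2 fold change 0.22), and MuRRS4-int from 4161 and 4119 to 4489 and 4283 (0.083, adjusted p = 0.0445 from edgeR and up to 0.386 over the alternatives). Of the 9 LTRIS families, LTRIS_Mus (0.18), LTRIS2 (0.14), LTRIS5 (0.31), LTRIS4A (0.58), LTRIS4B (0.71) and LTRIS6 (0.39, adjusted p up to 0.205 over the alternatives) rose. The log2 fold changes of LTRIS_Mm, LTRIS3 and LTRIS4, which did not pass, were -0.12, -0.12 and -0.036. LTRIS_Mm passed as lower without wt replicate 1 (-0.18) and without Top2β-null replicate 1 (-0.14), and LTRIS3 without Top2β-null replicate 1 (-0.22). The log2 fold change of LTRIS6 was 0.25 without Top2β-null replicate 1, and that of MuRRS4-int was 0.14 without Top2β-null replicate 2. LTRIS4B, with the highest of these fold changes, had 184 and 174 normalized counts in wt and 335 and 252 in Top2β-null MEF cells.

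Across the 29 families with a mouse gammaretroviral name, 17 were higher, 5 were lower and 7 did not pass, with a median log2 fold change of 0.14. Of all features 32.5% were higher and 32.5% lower, and of the other repeat families 27.3% and 11.7%. Of their 8 internal parts, 7 were higher and MMVL30-int was lower, and of their 21 LTRs 10 were higher and 4 were lower. MuRRS4-int and RLTR1B-int are among the 7 and lost the call under some alternatives.

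**Figure D4:**
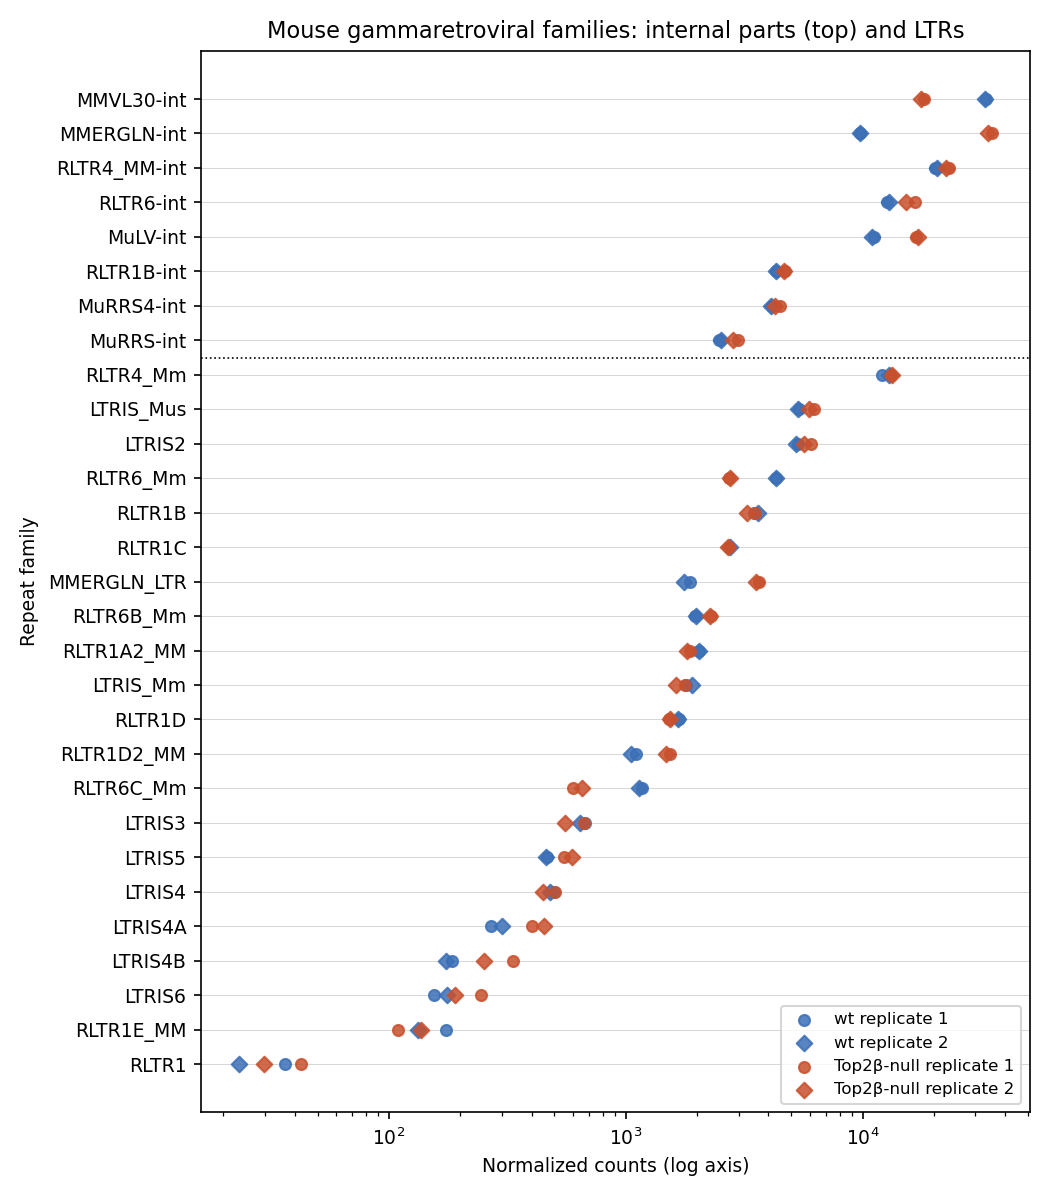
Normalized counts (log axis) of the 29 families with a mouse gammaretroviral name in each of the 4 libraries, internal parts above the dotted line and LTRs below it. MMERGLN-int, MMERGLN_LTR and MuLV-int are higher in both Top2β-null libraries, and MMVL30-int, RLTR6_Mm and RLTR6C_Mm are lower.

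The ratio of an internal part to an LTR was taken from the raw counts of each library, so that it needs no scaling between libraries. The log2 ratio of MMERGLN-int to MMERGLN_LTR was 2.39 and 2.46 in wt and 3.27 and 3.25 in the null cells, a difference of 0.84 with a pooled SD of 0.0388. The GLN internal part thus rose more than its LTR. MuLV-int to RLTR4_Mm was -0.12 and -0.23 in wt and 0.35 and 0.37 in the null cells, a difference of 0.54 (pooled SD 0.0561), whereas RLTR4_MM-int to the same LTR differed by 0.079 (pooled SD 0.046), which was 0.042 without wt replicate 2 and 0.051 without Top2β-null replicate 1.

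For VL30 the ratio depended on the LTR. MMVL30-int to RLTR6C_Mm was 4.81 and 4.85 in wt and 4.93 and 4.75 in Top2β-null MEF cells, and the groups overlapped. MMVL30-int to RLTR6_Mm was lower by a log2 difference of -0.23, and MMVL30-int to RLTR6B_Mm by -1.10 (pooled SD 0.0219). RLTR6-int to RLTR6B_Mm differed by 0.11 (pooled SD 0.055), which was 0.052 without Top2β-null replicate 1 and 0.16 without Top2β-null replicate 2, against 0.97 for RLTR6-int to RLTR6_Mm. In these counts MMVL30-int, RLTR6_Mm and RLTR6C_Mm thus moved one way and RLTR6-int with RLTR6B_Mm the other, and the log2 ratio of MMVL30-int to RLTR6-int went from 1.38 and 1.34 to 0.13 and 0.20.

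Among other families, the log2 ratio of RLTR14-int to RLTR14 was higher by 0.43 in Top2β-null MEF cells (pooled SD 0.0584). RLTR14-int had 6558 and 6653 normalized counts in wt and rose to 7943 and 7623, whereas RLTR14 fell from 7257 and 6999 to 6575 and 5925 (log2 fold change -0.19, and -0.098 without Top2β-null replicate 2). RodERV21-int rose from 5946 and 5972 to 7277 and 6488 (log2 fold change 0.21). These RLTR14 and RodERV21 families were named after their values were seen. The log2 ratio of MERV1_I-int to MERV1_LTR went the other way, from 1.99 and 1.91 in wt to 1.82 and 1.90 in Top2β-null MEF cells. Its difference was -0.09 (pooled SD 0.0545), and -0.131 to -0.049 with 1 library left out, while neither of these families passed the test. The ratio of MuRRS-int to LTRIS_Mm was higher by 0.35 (pooled SD 0.0367) and that to LTRIS_Mus by 0.044 (pooled SD 0.0243), which was 0.02 without wt replicate 1 and 0.068 without wt replicate 2. MURVY-int to MURVY-LTR, of a family amplified on the mouse Y chromosome, overlapped between genotypes, as did the summed counts of the 2 MURVY families (3393 and 3356 against 3686 and 3299), although MURVY-int (0.33) and MURVY-LTR (0.13) passed as higher without Top2β-null replicate 2, and MURVY-LTR (0.11) also with total count scaling.

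**Figure D5:**
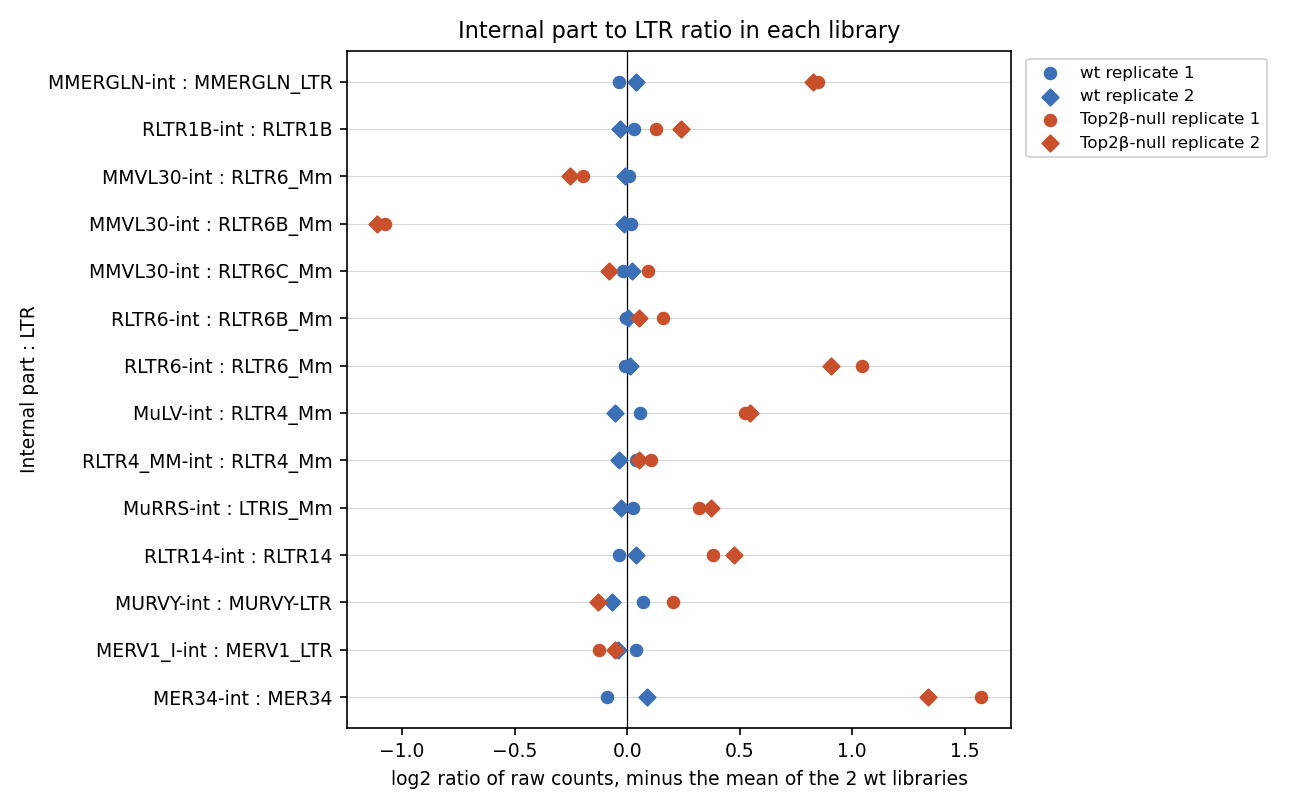
Log2 ratio of the raw counts of an internal part to an LTR family in each library, less the mean of the 2 wt libraries, for 14 pairs. The Top2β-null libraries lie to the right for GLN, MuLV, RLTR14 and MER34. They lie to the left for MMVL30-int over RLTR6_Mm and RLTR6B_Mm and, by less, for MERV1_I-int over MERV1_LTR. For MMVL30-int over RLTR6C_Mm and for MURVY they lie on both sides of the wt libraries.

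MER34-int, of an older family whose name is shared with other mammals, had 75.7 and 84 normalized counts in wt and 226 and 182 in Top2β-null MEF cells, a log2 fold change of 1.35 (SE 0.164, adjusted p = 2.19e-06, edgeR). The more abundant LTRs of that name went different ways. MER34A rose (log2 fold change 0.28), MER34A1 fell (-0.20), and MER34, with 2147 and 2108 against 2024 and 1923, did not pass (adjusted p = 0.0501, edgeR). With a replicate block in the fit MER34 passed as lower (-0.11, adjusted p = 0.0432, edgeR). MER34B-int, with 7330 and 6804 against 6649 and 6864, overlapped between genotypes. Without wt replicate 2, MER34 (-0.14) and MER34B-int (-0.13) passed as lower.

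MER31-int rose from 381 and 361 to 654 and 550 normalized counts (log2 fold change 0.70), and LTR78 from 1575 and 1603 to 2617 and 2510 (0.69, SE 0.0456). Lower in Top2β-null MEF cells were RLTR30D_RN, from 3440 and 3434 to 2255 and 2358 (log2 fold change -0.58, SE 0.0403), MER72B, from 140 and 140 to 79.7 and 66.4 (-0.94), MER51-int, from 404 and 404 to 323 and 306 (-0.36), and LTR45, from 141 and 160 to 116 and 84.2 (-0.60). The last did not keep its call under every alternative (adjusted p up to 0.108), nor did LTR77 (-0.27, adjusted p = 0.0497 by edgeR and up to 0.485). Without Top2β-null replicate 2 the log2 fold changes were -0.36 for LTR45 and -0.11 for LTR77. The rule that chose these families required groups that do not overlap.

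Of the ERV1 families tested, 2 reached 10 counts in 1 genotype only. Such a family could enter the test only by being high in that genotype, so its counts are given as a description, and both were chosen after their values were seen. LTR45C had 4 and 3 counts in wt and 45 and 50 in Top2β-null MEF cells. It remains among the higher families and higher LTRs in the numbers and shares of calls. MER83B-int had 11 and 13 counts in wt and 4 and 4 in Top2β-null MEF cells. It remains among the lower families and lower internal parts there.

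The LTR families with the most counts, RMER5 and MLTR14, did not pass the test, but calls were gained by RMER5 as lower with repeats fitted alone (adjusted p = 0.0396) and by MLTR14 as higher with total count scaling (adjusted p = 0.0241) and without Top2β-null replicate 2 (adjusted p = 0.00451), all by edgeR. RMER5 had 37007 and 35857 normalized counts in wt and 37409 and 34331 in Top2β-null MEF cells. MLTR14 had 29282 and 29349 against 30638 and 28519. In both families the genotypes overlapped. The 6 families with the most counts (RMER5, MLTR14, MMVL30-int, MMERGLN-int, RLTR4_MM-int and RLTR6-int) took 39.4% of the ERV1 counts in each wt library and 40.8% and 40.5% in the Top2β-null libraries.

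By the start of the name or a mouse suffix, 55 families were grouped as rodent names and 92 as other names. This grouping by letters is imperfect, since MURVY-int, MURVY-LTR, RodERV21-int and LTR72_RN, mouse or rodent by their names, fell among the other names. Of the 55, all of which were tested, 23 were higher and 12 were lower (median log2 fold change 0.021). Of the 81 others tested, 19 were higher and 16 were lower (median 0.016), shares below the 32.5% of all features in each direction. Of the 9 internal parts in the first group, 8 were higher and 1 was lower, against 6 higher and 3 lower of 18 internal parts in the second, which hold MURVY-int (not passing) and RodERV21-int (higher). The 3 lower ones include MER83B-int, which entered the test only through the wt libraries. The internal parts of the first group also had more counts, with a median of 14026 normalized counts against 303, and the part of this depth in the counts of calls was not tested. Among the LTRs, 15 were higher and 11 lower of 46 with rodent names, and 13 were higher and 13 lower of 63 with other names. LTR45C, which entered the test only through the null libraries, is among the higher LTRs with other names.

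Of 22 genes that silence retroviruses, 10 were higher, 8 were lower and 4 did not pass, where 32.5% of all features were higher and 32.5% lower, and none passed the cut-offs of the study. Trim28, the corepressor that KRAB zinc finger proteins bind, had 29701 and 30931 normalized counts in wt and 36201 and 36485 in Top2β-null MEF cells (log2 fold change 0.26). Setdb1, its partner methyltransferase, rose from 9416 and 9517 to 13894 and 13804 (0.55), and the DNA methyltransferase Dnmt3a from 1389 and 1340 to 2710 and 2677 (0.98). Zfp809, which binds the primer binding site of murine leukaemia viruses, fell from 2398 and 2427 to 2080 and 2079 (-0.21). Cbx5, which encodes the heterochromatin protein HP1α, fell with a log2 fold change of -0.63, and Uhrf1, which guides maintenance methylation of DNA, with -0.59. The median of the list was -0.015.

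Restriction factors act against retroviruses within the cell. Of 9 such genes reported here, 8 were higher and Samhd1 was lower, and 5 were higher past the cut-offs of the study, where 32.5% of all features were higher and 5.27% were higher past the cut-offs. Apobec3 is among both the 8 and the 5. It had 11 and 4 counts in wt and so met the filter of 10 counts in 2 libraries only with the null libraries. Trim25 had 14.1 and 10.6 normalized counts in wt and 8168 and 8163 in Top2β-null MEF cells. Apobec3, a cytidine deaminase packaged into virions, had 11.1 and 3.86 against 2680 and 2762, and Trim30a had 10.1 and 11.6 against 1094 and 1069. These 3 genes were near absent in the wt libraries and well expressed in the null libraries. Bst2, which tethers virions to the cell surface, rose from 441 and 473 to 3430 and 3509 (log2 fold change 2.92), and the helicase gene Mov10 from 1281 and 1358 to 5322 and 5230 (2.00). Fv1, itself of retroviral origin and a block to murine leukaemia virus capsids, rose from 927 and 905 to 1774 and 1807 (0.97). Several of these genes also respond to interferon, and their part in the ERV1 results was not tested.

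The cell surface receptors of murine gammaretroviruses were all expressed. Slc7a1, the ecotropic receptor, rose from 20906 and 21169 to 26760 and 26625 normalized counts (log2 fold change 0.34). Xpr1, the receptor of xenotropic and polytropic viruses, rose from 5143 and 5211 to 7731 and 7872 (0.59). Of the phosphate transporters, Slc20a2, the amphotropic receptor, rose by 0.16 on the log2 scale, and Slc20a1 fell from 12830 and 12788 to 8154 and 8156 (-0.65). Syna, an envelope gene of retroviral origin that acts in the placenta, had 8.07 and 4.83 normalized counts in wt and 49.7 and 33.7 in Top2β-null MEF cells.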

How the data were processed

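The deposited values are raw counts, which the authors made from paired-end reads of total RNA with Trim Galore! 0.4.0, STAR 2.5.2 (mm10, keeping reads with many alignments), samtools 1.3.1 and TEtranscripts 1.5.1 over Gencode M9 genes and RepeatMasker families. The mode of TEtranscripts is not given in the sources used here. If reads that align to several families were shared, counts of related families depend on each other. Family lengths, copies and positions were not used here, so levels are not compared between families.

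The members, gene lists and tests were chosen with earlier results of these data known. In R 4.3.3, rows that reached 10 counts in 2 or more of the 4 libraries were fitted in edgeR 4.0.16 (quasi-likelihood, TMM over genes and repeats, genotype as the only term), with Benjamini-Hochberg adjustment over all 26566 rows. Standard errors were derived from the fold change and the F statistic. Gene symbols and positions come from GENCODE M21 (54409 of 54842 identifiers matched). Beside the 9 restriction genes counted, a further gene of that list is not reported here.

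Families were named by these rules: past the cut-offs of the study; the 8 with the largest log2 fold change in each direction among those with an adjusted p below 0.05, a mean above 100 and groups that do not overlap; the 6 with the most counts; and the mouse gammaretroviral names. MMERGLN_LTR was paired with MMERGLN-int, and families were summed by group, after their values were seen, and the other families of the MER34, RLTR14, RodERV21, MURVY, MERV1, LTR45C and MER83B names were likewise named then. Alternatives were DESeq2 1.42.0, TMM from genes, total count scaling, no filter, at least 100 counts in every library, repeats fitted alone, a replicate block and leaving out each library. Over ERV1 families the chi-square between replicates was 2.23 (wt) and 3.25 (Top2β-null) per degree of freedom, above counting noise. This does not show that the libraries are separate cultures.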

Additional observations from a re-analysis of the deposited data

How the results depend on the processing

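Of 344 log2 fold changes of 50 ERV1 families, refitted with all libraries, 310 kept their direction and their side of the threshold, 22 kept the direction but lost the call, 4 gained a call (RMER5, MLTR14, MURVY-LTR and MER34) and 8 changed sign. With 1 library left out, where the lone library is assumed to vary like the others, these numbers were 160, 15, 11 and 10 of 196. None of the sign changes was in a family that passed the test. DESeq2 gave 14 lower ERV1 families and 11 lower LTRs. TMM from genes gave 0.286 for the summed MLV families, -0.761 for VL30 and 0.004 for RLTR1C, which was 0.002 without a filter. Scaling to the total count gave 14 lower families and 10 lower LTRs, log2 fold changes of the sums of 0.17 (ERV1), 0.326 (internal parts), 0.076 (LTRs), 1.795 (GLN), -0.71 (VL30), -0.359 (VL30 with RLTR6-int) and 0.337 (MLV), and 0.047 for RMER5, 0.005 for MER34B-int, 0.004 for RLTR1B, 0.054 for RLTR1C and 0.034 for LTRIS4. At least 100 counts in every library left 106 families, 17 lower (2 internal parts, 15 LTRs), 1 past the cut-offs as higher and 5 higher restriction genes, with fewer genes tested. Repeats fitted alone gave 27 higher families (9 internal parts, 18 LTRs) and 22 lower ones (3 internal parts, 19 LTRs), sums of 0.221 (internal parts), 1.691 (GLN), -0.814 (VL30), -0.463 (VL30 with RLTR6-int) and 0.233 (MLV), and -0.023 for MLTR14. Apart from these constructions, the cause was not tested.

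With 1 library left out, lower families numbered 17 to 30, lower internal parts 2 to 5, lower LTRs 14 to 25 and families past the cut-offs as lower 0 to 1. The log2 fold changes of the sums ranged from 0.08 to 0.156 (ERV1), 0.238 to 0.301 (internal parts), -0.016 to 0.068 (LTRs), 1.702 to 1.771 (GLN), -0.8 to -0.745 (VL30), -0.445 to -0.376 (VL30 with RLTR6-int) and 0.238 to 0.305 (MLV). Those of families that did not pass ranged from -0.004 to 0.082 (MLTR14), -0.028 to 0.618 (RLTR1), -0.035 to 0.022 (RLTR1C), -0.06 to 0.057 (RMER5), -0.109 to 0.013 (RLTR1B), -0.216 to 0.033 (LTRIS3), -0.114 to 0.329 (MURVY-int) and -0.083 to 0.066 (LTRIS4). The libraries share only a replicate number, since the deviations of libraries with the same number had a correlation of 0.0197 over 17952 features and of -0.221 over 109 ERV1 families, and the fit with a replicate block gave 45 higher and 27 lower families. Adding MMERGLN-int and MMVL30-int to the other internal parts moved the log2 fold change of the sum from 0.234 to 0.256.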
